A study of Mus musculus with 3 samples.

Results

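Apoe, Clu, Cst3, Dbi and Ptgds are 5 mouse genes whose products carry lipids or act outside the cell as chaperones or inhibitors, out of 15535 genes listed in single-cell count tables of the dentate gyrus. They were chosen by name because their levels in these libraries were high and differed between cell types, so those levels are a description without a test. The tissue was dissociated with trypsin and profiled in 3 droplet libraries, 1 per group, in which unique molecular identifiers (UMIs) count transcripts per cell barcode. The control library came from mice 8 weeks old in standard housing. The runner library came from mice of that age with a wheel for 12 days, and the aged library from mice 14 months old without a wheel. The sample labels give the strain hGFAP-eGFP, in which a human GFAP promoter drives a green fluorescent reporter, for every library, whereas the series text has wild-type adults and mentions the reporter with the 14-month group only. No sort on the reporter is described. How many mice were pooled per library is not stated in these sources.

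Apolipoprotein E is the main lipoprotein component secreted in the brain, where astrocytes load it with cholesterol and neurons take it up through receptors of the LDL receptor family. Clusterin, also named apolipoprotein J, is a secreted chaperone that binds misfolded proteins. Cystatin C, encoded by Cst3, inhibits cysteine proteases such as the cathepsins outside the cell. The acyl-CoA-binding protein encoded by Dbi carries long-chain acyl-CoA esters in the cytosol, and peptides cut from it bind the benzodiazepine site of GABA receptors. Ptgds encodes lipocalin-type prostaglandin D synthase, a secreted protein that makes prostaglandin D and carries small lipophilic molecules, and it is a known product of mature oligodendrocytes and of the meninges.

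In the GENCODE M21 annotation of GRCm38, Apoe lies on the minus strand at chr7:19696109-19699188 with 4 exons, and Clu on the plus strand at chr14:65968483-65981547 with 9 exons. Cst3 lies on the minus strand at chr2:148871722-148875692 with 3 exons, Dbi on the minus strand at chr1:120113280-120121078 with 4, and Ptgds on the minus strand at chr2:25466709-25470046 with 8. No annotated gene overlaps any of them. The last 500 bases of Dbi have a match of at least 90% identity over at least 100 bases in the processed pseudogene Gm12222. Whether reads of the matching stretch were split between them or left uncounted was not tested. Gm12222 had 3.89 UMIs per 1000000 (CPM) in control cells, 0.561 in runner cells and 0 UMIs in aged cells, where 3 UMIs would give 5.0 CPM.

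The RefSeq promoter table for GRCm38.p6 held 4 of the 5 genes. The 250 bases before a start site are shown for 3 of them, Apoe, Cst3 and Ptgds, since these were highest in different cell classes, and each is printed 5′ to 3′ on the gene's own minus strand. The table lists 3 starts for Apoe, of which the principal one is used. The Cst3 and Ptgds starts lie 64 and 297 bases from the principal start of the GENCODE annotation. The windows are chr7:19699189-19699438 for Apoe, chr2:148875513-148875762 for Cst3 and chr2:25469750-25469999 for Ptgds. Capitals mark matches, on either strand, to the TATA box TATAAA, the CCAAT box CCAAT, the GC box GGGCGG, the core GAGGAA of sites for the myeloid factor PU.1, and the E-box CANNTG, bound by basic helix-loop-helix factors.
Apoe: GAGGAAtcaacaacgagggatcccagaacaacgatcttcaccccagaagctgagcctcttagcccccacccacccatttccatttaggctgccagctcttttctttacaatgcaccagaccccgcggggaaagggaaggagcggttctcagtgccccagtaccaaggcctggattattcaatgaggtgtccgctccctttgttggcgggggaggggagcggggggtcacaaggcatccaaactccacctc
Cst3: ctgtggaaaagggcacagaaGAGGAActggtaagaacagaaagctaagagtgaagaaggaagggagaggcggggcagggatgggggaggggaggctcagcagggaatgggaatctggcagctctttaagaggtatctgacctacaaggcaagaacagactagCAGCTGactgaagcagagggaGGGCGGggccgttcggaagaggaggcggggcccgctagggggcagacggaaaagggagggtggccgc
Ptgds: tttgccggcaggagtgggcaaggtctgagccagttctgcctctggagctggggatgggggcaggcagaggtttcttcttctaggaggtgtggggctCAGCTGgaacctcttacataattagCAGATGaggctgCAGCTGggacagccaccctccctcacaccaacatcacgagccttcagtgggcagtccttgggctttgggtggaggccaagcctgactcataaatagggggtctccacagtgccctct
The Apoe and Cst3 windows each hold the GAGGAA core, at 250 and 230 bases before the start, and the core is in 23.3% of 32817 promoter windows of this length. Only the Cst3 window among these 3 holds a GC box, which is in 32.7% of all windows. The Ptgds window holds 3 E-boxes and the Cst3 window 1, and 66.2% of all windows hold at least 1. None of these 3 windows holds TATAAA or CCAAT, which are in 12.4% and 33.8% of all windows. Another Apoe start, 567 bases from the principal one, has TATAAA and an E-box in its window. A match is a description of letters, and binding was not measured.

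Cells were barcodes with at least 200 genes and under 10% mitochondrially encoded UMIs, which left 512 control, 963 runner and 391 aged cells of 2356, 3328 and 2421 barcodes. Their median depths were 1460, 1747 and 1409 UMIs. Cell classes were called by clustering without the 5 genes, and every class name means "like" that type. Each group had a single library and no replicate, so no test between groups was run, and the 95% intervals cover counting error alone. The control library serves both comparisons, which are therefore not independent. Pairs of libraries shared 8 to 10 barcodes. A level is the gene's CPM within a class of a library, and levels are compared within a gene.

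The 5 genes fell into 3 patterns over the classes. Apoe, Clu and Dbi were high in astrocyte-like cells, Cst3 in microglia-like and then astrocyte-like cells, and Ptgds in oligodendrocyte-like cells. Astrocyte-like cells held 69.6% of the Apoe UMIs of control cells, 67.9% in runner and 71.1% in aged. For Clu these shares were 84.6%, 82.7% and 87.2%, and for Dbi 45.7%, 37.6% and 39.2%. Microglia-like cells held 89.0%, 84.1% and 90.6% of Cst3 UMIs, and oligodendrocyte-like cells held 96.8%, 97.8% and 98.3% of Ptgds UMIs.

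**Figure D1:**
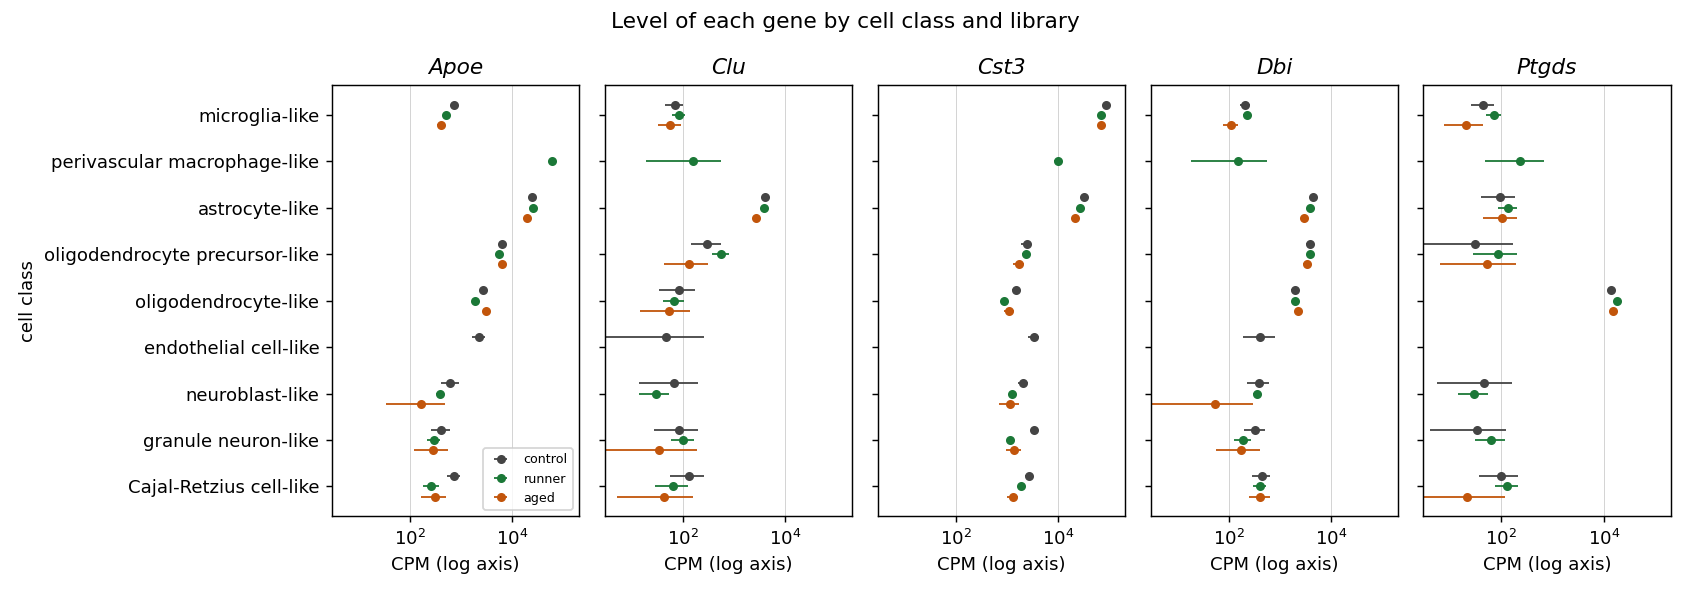
Level of each gene in CPM on a log axis by cell class, for control, runner and aged libraries, with exact Poisson 95% intervals for classes of at least 10 cells with at least 1 UMI of the gene. Ptgds in oligodendrocyte-like cells stands at 13820 to 17935 CPM, and Cst3 in microglia-like cells at 67457 to 84513 CPM.

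Apoe in astrocyte-like cells was 23574 CPM in control (64 cells, 2049 UMIs), 25621 in runner (124 cells, 4502 UMIs) and 19375 in aged (52 cells, 1509 UMIs). Every astrocyte-like cell in the 3 libraries had at least 1 Apoe UMI. The next class with at least 10 cells in all 3 libraries was the oligodendrocyte-precursor-like one, at 6272, 5481 and 6130 CPM. In control the astrocyte-like level was 3.76 times the precursor level (3.26 to 4.36). Oligodendrocyte-like cells followed at 2643, 1899 and 3095 CPM, and in control they could not be told apart from the 16 endothelial-like cells (2187 CPM, ratio 1.21, 0.88 to 1.69).

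The level of Apoe per cell was higher still in perivascular-macrophage-like cells, the macrophages that line brain vessels. These were 10 runner cells, 1 control cell and no aged cell. The 10 runner cells had 58924 CPM of Apoe, 2.30 times the runner astrocyte-like level (2.13 to 2.48), and made up 11.5% of the Apoe UMIs of runner cells. Their Cst3 level was 9834 CPM, below the 69070 CPM of runner microglia-like cells, so the 2 macrophage classes had opposite orders for these genes. The perivascular-macrophage-like levels rest on a cluster of 11 cells in all, and 1 library holds nearly all of it.

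In microglia-like cells Apoe was 734 CPM in control, 496 in runner and 407 in aged, with runner against control at 0.676 (0.570 to 0.802) and aged at 0.554 (0.443 to 0.689). The summed level of 8 astrocyte genes in the same microglia-like cells moved alongside, at 2810, 1926 and 1663 CPM. There were 26.1, 25.8 and 24.4 Apoe UMIs per 100 UMIs of these astrocyte genes. In barcodes with at least 30% mitochondrial UMIs the figure was 18.4, 17.6 and 18.6, and in astrocyte-like cells it was 59.5, 71.5 and 52.7. The part of astrocyte RNA in the microglia-like level was not tested.

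Clu had the sharpest step between astrocyte-like cells and the rest among the 3 astrocyte-high genes in control. Its astrocyte-like levels were 3992 CPM in control, 3796 in runner and 2722 in aged, and precursor-like cells came next at 302, 553 and 131 CPM. In control the step was 13.2-fold (7.11 to 27.9). From the precursor-like class down, no class in control could be told apart from the one next below it. Only neighbouring classes were compared, so this does not mean that the classes were alike. Microglia-like cells, further down, had 69.5 CPM in control.

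Dbi was spread over 3 glial classes. It was 4406, 3955 and 3004 CPM in control, runner and aged astrocyte-like cells, 3950, 3891 and 3353 CPM in precursor-like cells, and 1964, 1984 and 2284 CPM in oligodendrocyte-like cells. Astrocyte-like and precursor-like levels could not be told apart in any library, with ratios of 1.12 (0.91 to 1.37) in control and 1.02 (0.87 to 1.19) in runner. In aged the precursor-like level was the higher one, by 1.12 (0.89 to 1.39). When cells needed at least 500 genes, the control astrocyte-like level was 1.61 times the precursor-like level.

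The astrocyte-like class divided into 2 clusters at a finer resolution, and Apoe, Clu and Dbi were distributed unequally between them in each library. One cluster was led by Cldn10 and Gja1, the latter a gap-junction gene of mature astrocytes, and had 45 control, 76 runner and 40 aged cells. The other was led by Fabp7, a fatty acid carrier of radial glia, and Ptprz1, with 19, 45 and 12 cells. Cldn10 and Gpr37l1 were among the 10 leading genes of both clusters. Fabp7 was 746, 1474 and 718 CPM in the Cldn10-led cluster and 1467, 2593 and 2936 CPM in the Fabp7-led cluster. Hopx, a neural stem cell marker, was 421, 268 and 858 CPM and 793, 1159 and 770 CPM in the same order, so not higher in the Fabp7-led cluster in aged. Clu was 5041, 4939 and 2872 CPM in the Cldn10-led cluster and 1428, 2129 and 2311 CPM in the Fabp7-led cluster. Apoe was likewise higher in the Cldn10-led cluster, at 26905, 30143 and 20224 CPM against 15425, 19308 and 17041 CPM. Dbi had the opposite order, at 3225, 3283 and 2329 CPM in the Cldn10-led cluster and 7296, 4954 and 4862 CPM in the Fabp7-led cluster.

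The orders of Apoe and Dbi held in all 3 libraries with intervals that did not overlap. For Clu the intervals overlapped in aged (2449 to 3346 and 1704 to 3063 CPM). Cst3 was 31832 CPM in the Cldn10-led and 30850 in the Fabp7-led cluster in control, with intervals that overlapped. It was 28238 and 25884 CPM in runner and 22553 and 18822 in aged, higher in the Cldn10-led cluster without overlap of the intervals. The clusters were made without the 5 genes, but from other genes of the same cells, so these differences have no test.

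**Figure D2:**
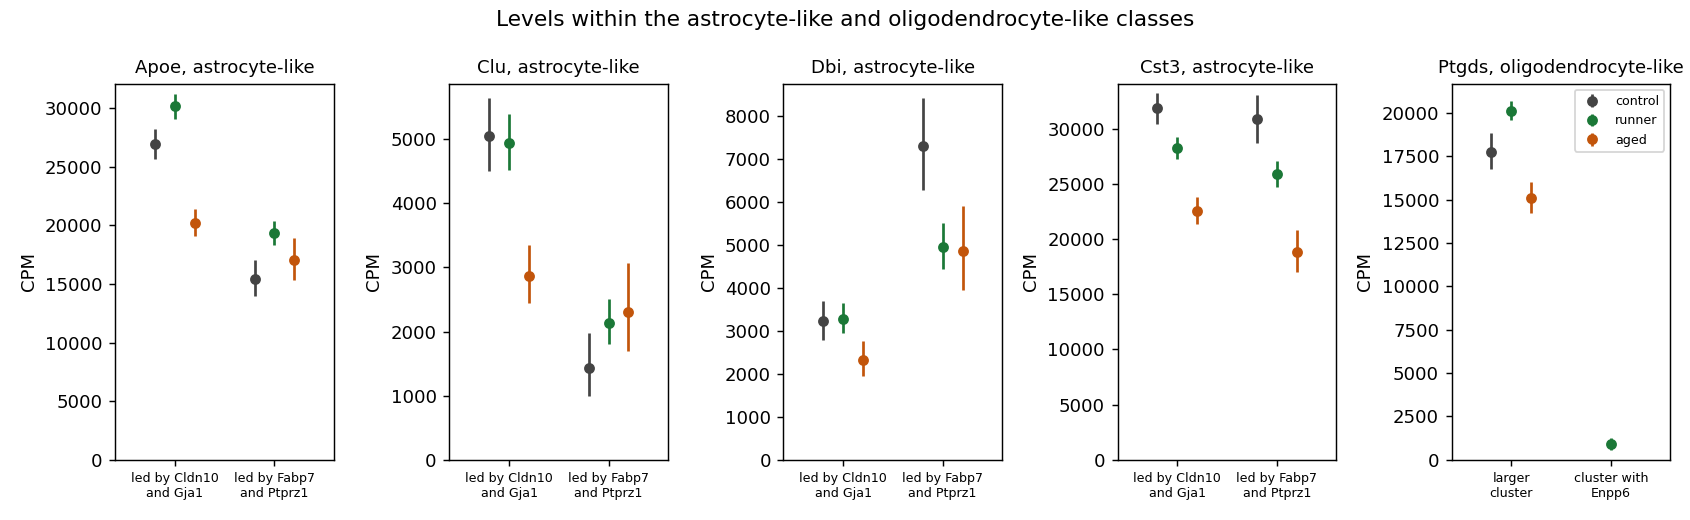
CPM with exact Poisson 95% intervals for Apoe, Clu, Dbi and Cst3 in the 2 astrocyte-like clusters, and for Ptgds in the 2 oligodendrocyte-like clusters, by library; a cluster of under 10 cells in a library is not drawn for Ptgds. Clu and Apoe are higher in the Cldn10-led cluster and Dbi in the Fabp7-led cluster, and Ptgds in runner is 20111 CPM in the larger cluster and 881 CPM in the cluster that has Enpp6 among its leading genes.

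Cst3 made up 8.45% of all UMIs of control microglia-like cells, 6.91% in runner and 6.75% in aged. With each cell thinned to 1000 UMIs, the median cell had 81 Cst3 UMIs in control (quartiles 56.5 and 101; 195 cells), 66 in runner (46 and 85; 302 cells) and 60 in aged (46.2 and 84; 134 cells). The variance over the mean of these thinned counts was 12.3, 13.9 and 14.4, well over the value of 1 that counting alone gives. Control microglia-like cells thus lay above the others at all 3 quartiles, while the quartile ranges of the libraries overlapped.

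The 5 microglia-like clusters, named by markers such as their C1q genes and P2ry12, differed in Cst3. A cluster of 167 cells with Selplg and Cx3cr1 among its leading genes had 84945 CPM. The largest, 323 cells led by Rgs1 with Ccl3 and Ccl4 among its leading genes, had 63693 CPM. The 38 cells of lowest depth (median 766 UMIs) had 58786 CPM, but 6 of them had 78 to 1565 UMIs of Ttr, the transthyretin gene that marks choroid plexus epithelium, and only 2 UMIs of 8 microglia genes in all. The other 32 had 99193 CPM.

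No other cell used had more than 2 Ttr UMIs. The 6 cells, 1 control and 5 runner, had 2480 CPM of Apoe, 1047 of Clu, 1653 of Cst3, 3251 of Dbi and 1543 of Ptgds. Enpp2, a choroid plexus enzyme that oligodendrocytes also make, was at 6117 CPM in them. They decided the runner values of the genes that were low in microglia-like cells. With them, runner against control was 1.10 for Dbi (0.824 to 1.48) and 1.59 for Ptgds (0.875 to 3.04), and without them 0.644 (0.461 to 0.900) and 0.593 (0.265 to 1.32). Apoe was 0.582 without them (0.487 to 0.696), and the aged values were 0.550 for Apoe and 0.535 for Dbi (0.344 to 0.817).

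In astrocyte-like cells Cst3 was 31547 CPM in control, 27066 in runner and 21558 in aged, so the microglia-like level was 2.68 times as high in control (2.58 to 2.79). Only 19, 54 and 30 UMIs of the 8 microglia genes lay in these astrocyte-like cells, beside 2742, 4756 and 1679 Cst3 UMIs. That is 14432, 8807 and 5597 Cst3 UMIs per 100 microglia-gene UMIs, where microglia-like cells had 259, 177 and 182. Oligodendrocyte-like cells had 1500, 883 and 1095 CPM of Cst3.

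Neurons had little Cst3, with medians of 2 UMIs per granule-neuron-like cell in each library. The control level of 3338 CPM there was raised by 1 cell, which held 113 of the 201 Cst3 UMIs and 20 UMIs of the microglia genes, while the next cell had 13. Runner and aged levels were 1157 and 1348 CPM. Their ratios to control were 0.347 and 0.404 with this cell, and 0.679 and 0.763 without the highest cell of each library. Cajal-Retzius-like cells, which are reelin-secreting neurons, had 2694, 1890 and 1290 CPM.

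Ptgds in oligodendrocyte-like cells was 13820 CPM in control (44 cells, 1161 UMIs), 17935 in runner (120 cells, 5035 UMIs) and 15098 in aged (46 cells, 1117 UMIs). In control the next class, Cajal-Retzius-like, had 98.0 CPM, so the step was 141-fold (64.6 to 385). Thinned cells held a median of 13, 17 and 15.5 Ptgds UMIs with a variance over the mean of 11.1, 11.8 and 6.54. Genes that mark vascular leptomeningeal cells, another known Ptgds source, were at 0 UMIs in oligodendrocyte-like cells of every library, which allows up to 35.7, 10.7 and 40.6 CPM.

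The 2 oligodendrocyte-like clusters differed widely in Ptgds. The larger one, with Car2 and Cldn11 among its leading genes, had 192 cells and 18764 CPM. The other, with Enpp6, a gene of newly formed oligodendrocytes, among its leading genes, had 18 cells and 1059 CPM (798 to 1379). It held 7 control cells, 11 runner cells and none of the aged library. Within the larger cluster Ptgds was 17758 CPM in control, 20111 in runner and 15098 in aged.

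Against control, the runner astrocyte-like cells had 1.09 times the Apoe (1.03 to 1.15), 0.951 times the Clu (0.834 to 1.09), 0.898 times the Dbi (0.791 to 1.02) and 0.858 times the Cst3 (0.818 to 0.900). A limit of 25% higher or 20% lower, the same step on a log scale, was used to count genes. None of the 4 was past it. Of the 327 genes with at least 100 UMIs over both libraries in this class, 20.5% were past the upper limit and 20.5% past the lower one. The Apoe interval included 1 with at least 500 genes per cell (1.04, 0.988 to 1.10) and with cells thinned to 1000 UMIs (1.02, 0.954 to 1.10). Clu was past the lower limit in thinned cells (0.773, 0.644 to 0.930), and was 1.15 with under 5% mitochondrial UMIs, with an interval that included 1.

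The aged astrocyte-like cells had lower levels of all 4: 0.822 for Apoe (0.769 to 0.879), 0.682 for Clu (0.572 to 0.811), 0.682 for Dbi (0.577 to 0.804) and 0.683 for Cst3 (0.643 to 0.726). Of these, 3 were past the lower limit, as were 26.9% of 171 genes, with 15.2% past the upper one. With scaling by the median ratio instead of the total, 33 genes were past the upper limit and 35 past the lower, in place of 26 and 46. In the cells with under 5% mitochondrial UMIs the Clu ratio was 1.05, on the other side of 1. In the Fabp7-led cluster the aged levels of Clu and Apoe were not below the control levels.

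**Figure D3:**
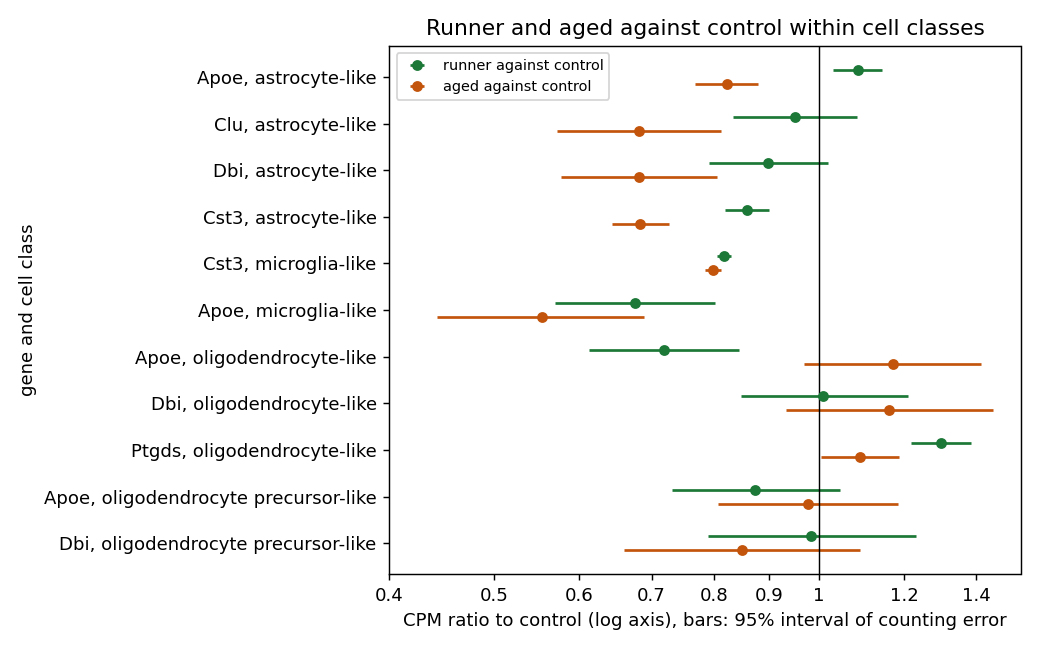
CPM ratio of runner and of aged to control on a log axis, with exact 95% intervals of counting error, for selected genes in the main glial classes. In astrocyte-like cells the 4 aged ratios lie at 0.682 to 0.822, and the runner ratios at 0.858 to 1.09.

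Cst3 in microglia-like cells was 0.817 times control in runner (0.805 to 0.830) and 0.798 in aged (0.784 to 0.813). The aged value is just past the lower limit and the runner value just inside it. Of 1246 genes in the runner comparison 13.3% were past it, and of 855 in the aged comparison 15.0%. Within 3 of the clusters the runner ratio was 0.909, 0.810 and 0.880 and the aged ratio 0.872, 0.698 and 0.804. In a cluster of 77 cells, 44 control, 6 runner and 27 aged, the aged ratio was 0.606 (0.567 to 0.647). The libraries were thus spread unequally over the clusters, and the cluster with Selplg and Cx3cr1 held 47, 54 and 66 cells. Runner against aged in microglia-like cells, which does not use control, was 1.02. Lower Cst3 than in control was not limited to this class. In neuroblast-like cells it was 0.594 in runner (0.473 to 0.754) and 0.547 in aged (0.323 to 0.887). In Cajal-Retzius-like cells it was 0.702 (0.572 to 0.862) and 0.479 (0.350 to 0.647). The precursor-like ratio was 0.975 in runner (0.734 to 1.30) and 0.706 in aged (0.501 to 0.992). In cycling cells the runner ratio was above 1, at 2.18 (1.91 to 2.49), from 10 control cells at 13830 CPM and 15 runner cells at 30098 CPM. The cycling cluster had the neuroblast marker Sox11 beside Ccl3 and Ccl4 among its leading genes. Cell types within it were not separated, and the part of their mix in this ratio was not tested.

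Ptgds in oligodendrocyte-like cells was 1.30 times control in runner (1.22 to 1.38) and 1.09 in aged (1.01 to 1.19). The runner value was past the upper limit, as were 23.3% of 515 genes. The aged value was not, and of 188 genes 21.3% were past the upper and 19.7% past the lower limit. Within the larger cluster alone the runner ratio was 1.13 (1.06 to 1.21) and the aged ratio 0.850 (0.782 to 0.924), so the aged direction turned. In the same class Apoe was 0.718 in runner (0.613 to 0.844) and Cst3 0.589 (0.473 to 0.736), both past the lower limit, as were 19.4% of genes. The summed astrocyte genes were 2774 CPM in control and 1485 CPM in runner there, and their part in these values was not tested. Dbi was at 1.01 in runner (0.848 to 1.21) and 1.16 in aged (0.933 to 1.45).

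In precursor-like cells the intervals for Apoe and Dbi included 1 in both comparisons. Apoe was 0.874 in runner (0.731 to 1.05) and 0.977 in aged (0.807 to 1.18). Dbi was 0.985 (0.790 to 1.23) and 0.849 (0.660 to 1.09).

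Of the list of cathepsins, legumain and other cystatins, which holds cysteine proteases, proteases of other kinds and relatives of Cst3, 10 of 13 genes had at least 100 UMIs in runner and control microglia-like cells. Intervals lay above 1 for 6 of them and below 1 for none, with a median log2 ratio of 0.25 where all genes had 0.03. Past the upper limit were Ctsl (1.60, 1.33 to 1.94), Ctsc (1.40, 1.11 to 1.78), Lgmn (1.33, 1.245 to 1.41) and Ctsb (1.30, 1.16 to 1.46), or 4 of 10 beside 20.1% of all genes. Ctsd, the aspartic cathepsin of lysosomes, was 6996 CPM in control, 7945 in runner and 8017 in aged, and Ctss was 4832, 5755 and 5705. In the aged comparison 2 of 9 genes, Ctsd (1.15, 1.08 to 1.21) and Ctss (1.18, 1.10 to 1.26), had intervals above 1, none below, with a median of 0.11 where all genes had 0.03. Past the upper limit was 1 of the 9, Ctsc, beside 16.8% of all genes.

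Other lists were thinly measured in the classes of the members. Of 16 other secreted or luminal chaperones and amyloid binders, 4 had at least 100 UMIs in runner and control astrocyte-like cells, with a median log2 ratio of 0.24 where all genes had -0.02. Itm2b, an amyloid-binding membrane protein, was 1530, 1918 and 1361 CPM (runner 1.253, 1.02 to 1.54). Ttr had 0 UMIs in control astrocyte-like cells, 62.6 CPM in runner and 12.8 in aged. No astrocyte-like cell had more than 2 Ttr UMIs. The runner library held 5 of the 6 Ttr-rich cells, and the part of their RNA in these values was not tested. In the aged comparison 2 of the 16 were measured, and Sparcl1, a matrix protein of astrocytes, was at 1.27 (1.03 to 1.57) with a list median of 0.09 where all genes had -0.09.

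Of 18 acyl-CoA and fatty acid binding genes, 4 were measured in runner and 2 in aged astrocyte-like cells. The medians were -0.09 and 0.12. Fabp5, a fatty acid carrier, was 644, 427 and 449 CPM, with runner at 0.66 (0.46 to 0.95). Fabp7 was 955, 1901 and 1310 CPM, with runner at 1.99 (1.56 to 2.56) and aged at 1.37 (1.02 to 1.86). Dbi had ratios below 1 in both comparisons in the same cells, and its runner interval included 1.

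No gene of the lists for lipoprotein loading and for receptors of apolipoprotein E and clusterin reached 100 UMIs in astrocyte-like cells. Npc2, a lysosomal cholesterol carrier, was 276, 262 and 295 CPM there, and Apod had 0 UMIs, which allows up to 34.5, 17.1 and 38.5 CPM. Trem2, a microglial receptor that binds apolipoprotein E, was 2520, 1812 and 2446 CPM in microglia-like cells. Lrpap1, a chaperone of these receptors, was 138, 159 and 89.9 CPM in astrocyte-like cells.

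Of the prostaglandin and lipocalin list, Apod was the only gene measured in oligodendrocyte-like cells. Apolipoprotein D is a lipocalin like the Ptgds product, and it was 643 CPM in control (54 UMIs), 887 in runner (249) and 1690 in aged (125). Aged against control was 2.63 (1.90 to 3.69) and runner 1.38 (1.02 to 1.89). The class includes the cluster with Enpp6, which held 7 control, 11 runner and no aged cells. Apod was not compared within the larger cluster alone, so the part of this mix in the ratios was not tested. Ptgs1 and Hpgds, a cyclooxygenase and the blood-cell type of prostaglandin D synthase, were in microglia-like cells instead, with Hpgds at 534, 536 and 625 CPM. Hpgds had 0 UMIs in oligodendrocyte-like cells, which allows up to 35.7, 10.7 and 40.6 CPM. The 2 prostaglandin D synthases were thus in separate classes.

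The genes whose levels were most like those of a member were taken over 19 profiles of a class in a library, among 4870 genes, as the Pearson correlation of log2 (CPM plus 20). A profile needed at least 20 cells, so perivascular-macrophage-like and endothelial-like cells were left out. Cycling cells were left out as well. For Ptgds these were Gm21984, Mal and Ermn (each 0.977), the latter 2 being myelin proteins. For Clu they were Ntsr2 and Aldoc (each 0.967) and Cldn10 (0.963). For Dbi they were Ptn, a secreted growth factor (0.978), S100a1 (0.951) and Asrgl1 (0.937). In the endothelial-like cells left out, Ptn was 2998 CPM and Dbi 447 CPM. For Cst3 they were Cyba, a subunit of the phagocyte oxidase (0.952), Mertk (0.948), a receptor for dying cells, and Itgb5 (0.939). For Apoe they were Metrn (0.935), Ckb (0.930) and Abhd3 (0.928). In the perivascular-macrophage-like cells left out, where Apoe was highest, Metrn and Abhd3 were at 0 CPM and Ckb at 291 CPM. Among the members, Apoe and Dbi were closest (0.911), followed by Apoe and Clu (0.854), while Cst3 and Ptgds were at -0.357. Profiles of 1 library share its depth, so these values are a description.

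Apart from the cells used, 1381 control, 2118 runner and 1815 aged barcodes had at least 30% mitochondrial UMIs. They had a median of 397, 354 and 394 other UMIs, and their levels are CPM of these other UMIs. Clu and Dbi were higher there than in the cells used, by 1.80 (1.58 to 2.04), 2.22 and 2.38 for Clu and by 1.97 (1.81 to 2.15), 1.86 and 1.68 for Dbi. As CPM of all UMIs the control difference was small, with 554 CPM of Clu there and 532 in the cells used, and 1244 and 1087 CPM of Dbi. Without mitochondrial UMIs, Apoe was near the level of the cells, at 1.10, 1.03 and 1.07. Cst3 was lower, at 0.350, 0.345 and 0.320, and Ptgds much lower, at 0.092, 0.052 and 0.117.

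Of each gene's UMIs in the aged library, 64.3% for Clu and 60.0% for Dbi lay in such barcodes, but 12.6% for Ptgds. In control the shares were 41.3%, 48.3% and 5.68%, and in runner 41.4%, 41.4% and 2.37%. Such a share also depends on how many UMIs these barcodes held in all, and the share over all genes was not computed. For Apoe, whose level there was near that of the cells, the share was 33.1% in control, 28.5% in runner and 50.3% in aged. The summed astrocyte genes moved the same way as Clu and Dbi, at 24110, 22744 and 21308 CPM in these barcodes beside 7588, 5496 and 6773 CPM in the cells. The microglia genes were at 2582, 1509 and 2590 CPM beside 16423, 13886 and 19650 CPM. What these barcodes are was not tested.

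Cst3 was spread widely over the mitochondria-rich barcodes. It had at least 1 UMI in 93.7%, 82.7% and 88.1% of them, with 633, 634 and 481 Cst3 UMIs per 100 microglia-gene UMIs, where microglia-like cells had 259, 177 and 182. With barcodes thinned to 200 of these UMIs, the mean was 3.104, 1.80 and 2.27 Cst3 UMIs and the variance over the mean was 4.79, 4.80 and 3.97, above the value of 1 that counting alone gives.

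Between libraries, Cst3 in these barcodes was 0.585 times control in runner (0.568 to 0.602) and 0.761 in aged (0.741 to 0.783). In the runner comparison 12.5% of 1740 genes were past the lower limit and 21.8% past the upper, and in the aged comparison 17.4% and 12.4% of 1642. Clu was at 1.04 and 1.01, Apoe at 0.898 and 0.893, and Dbi at 0.889 and 0.781. Ptgds was at 1.03 (0.782 to 1.36) in runner and 1.55 (1.20 to 2.01) in aged, from 90 control, 132 runner and 194 aged UMIs.

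**Figure D4:**
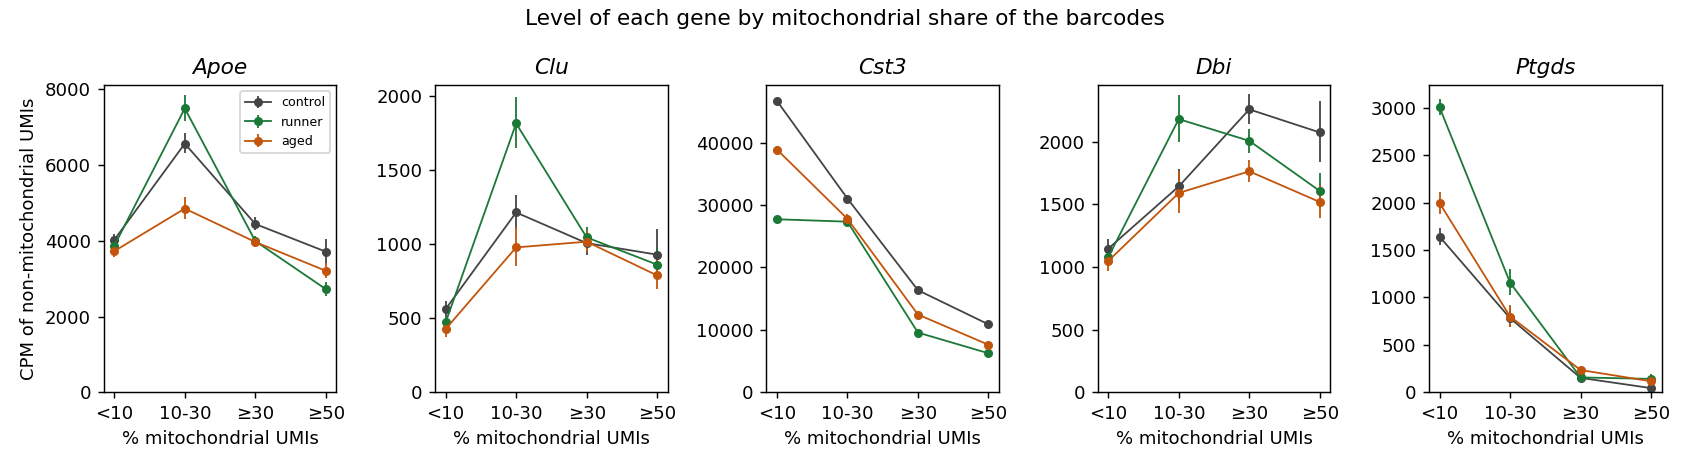
Level of each gene as CPM of the UMIs outside the mitochondrial genes, with exact Poisson 95% intervals, in barcodes with under 10% (cells used), 10 to 30%, at least 30% and at least 50% mitochondrial UMIs; the last group is part of the one before. Clu and Dbi are lowest in the cells used in every library, while Ptgds is highest there. Cst3 is also highest there in control and aged, and in runner it is 27723 CPM there and 27336 CPM in the 10 to 30% group, which could not be told apart.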

How the data were processed

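Dissociated dentate gyrus was measured by 10x Chromium 3′ version 2 single-cell RNA sequencing, per the labels' protocols. The authors deposited raw UMI counts, 1 table for each library, and Cell Ranger 2.1.1, Seurat 3.1.0 and GRCm38 are named per the submitters' processing notes. The rule for calling barcodes as cells is not stated there. Library totals were 2330698 control, 3808360 runner and 2537567 aged UMIs.

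Cells needed 200 or more genes and under 10% mitochondrial UMIs, and 2, 6 and 2 Scrublet doublet calls were removed. The members were left out, counts were scaled to 10000 per cell, and 2000 variable genes, 30 principal components and 15 neighbours were clustered with Leiden at resolution 1.0. Clusters took the name of the marker list with most genes among their 10 leading genes, if at least 3 markers were detected in 25% of cells at 2-fold or more. These thresholds were set after seeing the data. So was the choice to merge pyramidal into granule neurons, and newly formed into other oligodendrocytes. The tools were Scanpy 1.11.5, leidenalg 0.10.2, SciPy 1.17.1 and NumPy 2.4.6.

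UMIs were summed per class and library. Levels carry exact Poisson and ratios exact conditional binomial 95% intervals, which cover counting error only, and the interval code was tested on simulated data. The members and lists were chosen with earlier results of these data known. From each list, the 2 genes with the most UMIs were named, and up to 4 with at least 100 UMIs that were 25% higher or 20% lower with an interval excluding 1. Clusters inside a class, the cells with at least 50 Ttr UMIs and the highest Cst3 cell were singled out after their values were seen. The promoter table holds further windows that are not reported here. Alternatives in filters, resolution, scaling and depth are given in the closing section.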

Additional observations from a re-analysis of the deposited data

How the results depend on the processing

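With 1 library per group, replicate spread is unknown, and low classes rest on few UMIs. Over 22 results and 183 alternatives, 132 stayed within the 95% interval of the value reported, 42 moved outside it and 9 turned direction. The causes were not tested. No paired analysis was possible because each group has 1 library.

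Between classes in control, Apoe in astrocyte-like over precursor-like cells was 4.74 with under 20% mitochondrial UMIs, 5.53 with at least 500 genes and 5.56 at resolution 0.5. Dbi was 1.61 and 1.61 under the last 2. Cst3 in microglia-like over astrocyte-like cells was 3.80, 2.80 and 2.80 with under 5%, under 20% and at least 500 genes.

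With under 5% mitochondrial UMIs, runner against control was 1.15 for Clu and 1.15 for Ptgds, and aged against control was 0.935 for Apoe, 1.05 for Clu and 0.998 for Ptgds. With under 20%, runner was 1.16 for Apoe, 0.851 for Cst3, 1.03 for Dbi and 1.15 for Ptgds, and aged was 0.815 for Ptgds. With at least 500 genes, runner was 0.851 for Cst3 and 1.12 for Ptgds, and aged 0.831 for Ptgds. At resolution 0.5, and in the larger oligodendrocyte-like cluster alone, Ptgds was 1.13 in runner and 0.850 in aged. Thinned to 1000 UMIs, runner was 1.02 for Apoe, 0.773 for Clu and 0.832 for Cst3, and aged 0.824 for Cst3. Against aged in place of control, runner was 1.32 for Apoe, 1.39 for Clu, 1.02 for Cst3, 1.32 for Dbi and 1.19 for Ptgds. For Cst3, runner was 0.832 with cells called one by one, 0.803 without mitochondrial UMIs, 0.804 without the members in the total, 0.799 with median scaling, 0.841 without the 2 shallow clusters and 0.835 without the Ttr-rich cells. Aged was 0.783 without the members. The alternatives for single clusters and cells were chosen after seeing the data.

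In mitochondria-rich barcodes over cells in control, Apoe was 0.923, Cst3 0.233 and Ptgds 0.027 at 50% or more. As CPM of all UMIs, they were 0.642, 0.203 and 0.054, with Clu at 1.04 and Dbi at 1.14.

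Genes past the limit of 25% higher or 20% lower in runner numbered 416, 134 and 220 in microglia-like, astrocyte-like and oligodendrocyte-like cells, 2541, 1108 and 1593 with at least 20 UMIs, and 115, 40 and 90 past 1.5-fold. In aged they numbered 272, 72 and 77, then 2047, 630 and 749, and 82, 18 and 27.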
